A study of Mus musculus with 24 samples.

Results

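NF-κB is the transcription factor that drives much of the inflammatory gene expression of macrophages. Described here are 35 mouse genes of that pathway, chosen as a list of named symbols and found in the gene count table by their Ensembl identifiers. All 35 were found among its 47643 gene rows. They were 5 subunit genes, 9 genes of inhibitors and feedback proteins, 8 genes of receptors, adaptors and kinases, 6 genes of secreted proteins, and 7 genes of surface proteins, enzymes and other targets. Of these, 34 passed the filter on low counts and were tested among 15000 genes. Il12b, the gene of an interleukin subunit, did not pass.

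The counts come from 24 RNA-seq libraries of mouse macrophages, 3 in each of 8 groups. The macrophages had 2 sources, bone marrow (called bone marrow-derived) and induced pluripotent stem cells (called iPSC-derived). Each source has a day 0 group that was not co-cultured and co-cultured groups of days 3, 6 and 12. The series describes the day 0 cells as controls of the same batch, and its title names a model of tissue-resident macrophages as the purpose. Genotype, strain, iPSC line, donor animals and the co-culture partner are not given in the sources used here. Time and co-culture cannot be told apart in a change from day 0, because only the later groups were co-cultured. The replicates are called independent in the series' design text, and p-values cover only the spread between these libraries.

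In resting macrophages, dimers of the NF-κB subunits are held in the cytoplasm by IκB proteins. Signals from TNF receptors, Toll-like receptors or CD40 pass through adaptors to IκB kinases, MyD88 being an adaptor of Toll-like receptors. The kinases mark IκB for destruction and release the dimers to the nucleus. The targets include cytokines and surface molecules, and also the IκB genes and the ubiquitin editor gene Tnfaip3, whose products switch the signal off again. In brain macrophages the pathway is known for its part in the inflammatory response to injury and infection.

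The bases just before the start site are shown for 8 members whose levels are described below. Nfkbia, Nfkbie, Tnfaip3 and Sod2 moved in opposite directions in the 2 sources at day 3. Rel rose in iPSC-derived cells then, and its change in bone marrow-derived cells did not pass the test. Il6 was near its detection limit, and Saa3 and Tnf had large changes. Each window holds the 150 bases before the RefSeq start site, in GRCm38.p6 coordinates, written from 5′ to 3′ on the strand of the gene. For Tnfaip3 the gene as counted starts further upstream, at 19015657, so its window lies inside that gene. The windows of Tnfaip3, Sod2, Rel and Saa3 hold 13, 22, 1 and 24 bases of annotated exons. Capitals mark matches to the κB consensus, the degenerate 10-base site that NF-κB dimers bind, on either strand.
Nfkbia (chr12:55492648-55492797, minus strand): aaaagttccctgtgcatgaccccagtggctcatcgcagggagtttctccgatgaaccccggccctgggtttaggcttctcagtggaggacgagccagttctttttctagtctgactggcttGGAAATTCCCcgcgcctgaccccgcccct
Nfkbie (chr17:45555550-45555699, plus strand): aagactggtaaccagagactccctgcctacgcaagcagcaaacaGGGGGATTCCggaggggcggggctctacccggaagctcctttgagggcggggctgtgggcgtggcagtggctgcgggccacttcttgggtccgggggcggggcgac
Tnfaip3 (chr10:19015411-19015560, minus strand): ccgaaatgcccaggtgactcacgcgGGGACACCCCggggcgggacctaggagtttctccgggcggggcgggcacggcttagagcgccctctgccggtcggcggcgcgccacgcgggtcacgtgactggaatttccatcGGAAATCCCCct
Sod2 (chr17:13007689-13007838, plus strand): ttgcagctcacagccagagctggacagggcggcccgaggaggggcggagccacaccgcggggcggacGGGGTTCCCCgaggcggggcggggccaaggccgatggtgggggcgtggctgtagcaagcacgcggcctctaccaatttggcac
Rel (chr11:23770970-23771119, minus strand): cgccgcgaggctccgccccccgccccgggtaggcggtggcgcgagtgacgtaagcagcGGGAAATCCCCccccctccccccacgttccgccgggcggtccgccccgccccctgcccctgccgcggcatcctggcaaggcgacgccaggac
Il6 (chr5:30012964-30013113, plus strand): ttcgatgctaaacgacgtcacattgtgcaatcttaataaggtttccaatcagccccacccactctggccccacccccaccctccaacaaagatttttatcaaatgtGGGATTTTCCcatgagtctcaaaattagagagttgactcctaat
Saa3 (chr7:46715677-46715826, minus strand): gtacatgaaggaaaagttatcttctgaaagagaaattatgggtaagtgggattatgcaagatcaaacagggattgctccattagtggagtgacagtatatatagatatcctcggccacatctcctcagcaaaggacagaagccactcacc
Tnf (chr17:35202008-35202157, minus strand): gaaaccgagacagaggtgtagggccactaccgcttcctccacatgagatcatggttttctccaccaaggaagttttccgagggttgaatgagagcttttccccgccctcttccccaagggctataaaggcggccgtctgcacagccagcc

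The consensus was searched on both strands of every RefSeq window of 250 bases before to 50 bases after a start site. It lay in 10 of the 28 members with a window (35.7%), namely Nfkb2, Rel, Nfkbia, Nfkbie, Bcl3, Tnfaip3, Sod2, Il6, Ier3 and Ebi3. Of all 27025 genes with a window, 5.14% held it, and of all 32851 windows 4.51%. In Nfkbia it lay 29 to 20 bases before the start site, in Il6 44 to 35 and in Sod2 83 to 74. The run of capitals in Rel is longer than 1 site because matches overlap there. A looser form, GGGNNNNNCC, overlaps with it, since every consensus match is also a match to the looser form. The looser form lay in 22 of 28 members (78.6%) and in 53.5% of all genes. Saa3 and Tnf held 0 consensus matches in their windows, which says only that these letters are not in that stretch. A match is a description of the sequence. Nfkb1, Relb, Nfkbiz, Cd40, Cd86, Map3k8 and Ripk2 were not matched to a window.

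Library totals ran from 5839316 to 11805478 counts, and libraries of the same group correlated at 0.921 to 0.969 across genes. Levels are given as CPM, the standard unit of counts relative to library size, here after scaling of the libraries. The 12 macrophage markers summed to 7484 to 10406 CPM in iPSC-derived cells at day 0, to 11413 to 36552 CPM in the later iPSC-derived libraries and to 27842 to 44451 CPM in bone marrow-derived libraries. All 12 were above the filter. Neutrophil markers summed to at most 2.56 CPM and lymphocyte markers to at most 1.26 CPM in any library, and 0 of these 15 genes passed the filter. In such bulk samples, fewer cells of a type and less RNA per cell cannot be told apart.

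Markers of other cell types rose after day 0 in the same comparisons as the members. Of 8 neuron markers, 6 rose at day 3 in iPSC-derived and 8 in bone marrow-derived cells. Their sum went from 1.72 to 2.95 CPM at day 0 to 17.5 to 42.9 CPM at day 3 in iPSC-derived cells, and from 0 to 1.28 CPM to 43.5 to 60.5 CPM in bone marrow-derived cells, and lay between 10.2 and 50.3 CPM in the later libraries. Of 8 fibroblast markers, 3 rose in iPSC-derived cells at day 3, 6 at day 6 and 6 at day 12, and 0, 3 and 6 in bone marrow-derived cells. Their sum was at most 30.3 CPM at day 0, 19.2 to 92.3 CPM at day 3, and later 281 to 833 CPM in iPSC-derived and 33.1 to 204 CPM in bone marrow-derived cells. Of 7 tested astrocyte markers (8 listed), 3 rose and 1 fell at day 3 in iPSC-derived cells, and 5 rose in bone marrow-derived cells. Their sum was 15.1 to 50.3 CPM at day 0, 22.7 to 48.1 CPM at day 3 and up to 99.04 CPM later. Of 7 tested oligodendrocyte lineage markers (8 listed), 3 rose at day 3 in iPSC-derived cells and 1 in bone marrow-derived cells, with sums of 70.8 to 138 CPM at day 0, 123 to 179 CPM at day 3 and up to 392 CPM later. Of 4 tested endothelial markers (6 listed), 1 rose at day 3 in bone marrow-derived cells, where the sum went from 2.67 to 5.99 CPM to 42.7 to 50.7 CPM, and 0 rose in iPSC-derived cells, where it was 13.1 to 30.5 CPM and then 16.9 to 25.8 CPM. Of the 12 macrophage markers, 8 rose at day 3 in iPSC-derived cells, and 6 rose and 1 fell in bone marrow-derived cells. In iPSC-derived cells the 12 summed to 7483.66 to 10405.7 CPM at day 0 and to 25096.1 to 30306.5 CPM at day 3. In bone marrow-derived cells that sum was lower at day 3, at 33366.5 to 36327.8 CPM against 41686.5 to 44450.7 CPM at day 0. The part of these changes in the changes of the members from day 0 was not tested.

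Between day 0 and day 3, 11 of the 34 tested members changed in opposite directions in the 2 sources. Of these, 10 fell in iPSC-derived and rose in bone marrow-derived cells. The share of all tested genes called in opposite directions was not counted. The count of 11 rests in part on calls lost without at least 1 library. These were Relb, Nfkbia and Map3k8 in bone marrow-derived cells and Lcn2 in iPSC-derived cells. In iPSC-derived macrophages 13 members fell at day 3, among them the IκB genes Nfkbia, Nfkbib and Nfkbie, the cytokine gene Tnf and the antioxidant enzyme gene Sod2. In bone marrow-derived macrophages 18 members rose, among them Nfkbia, Nfkbie, Tnf and Sod2, the serum amyloid gene Saa3 and the siderophore-binding protein gene Lcn2. "Rose" and "fell" are used where the edgeR quasi-likelihood test gave an adjusted p below 0.05 over all 15000 genes.

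In the iPSC-derived comparison of day 3 with day 0, 3 of 34 members rose and 13 fell. Over all tested genes, 11.2% rose and 8.14% fell (19.4% in either direction), so the count of rises was near the background and that of falls was above it. The median log2 fold change of the members was -0.70, against 0.04 over all genes. For bone marrow-derived cells, 18 members rose and 1 fell, against 11.9% and 6.61% of all genes (18.5% in either direction), and the members' median was 0.78 against 0.04. This list, like the further lists below, was chosen with earlier results of these data known. Shares of members set beside the background, here and below, are therefore description only. The plot of the change from day 0 to day 3 sets the 2 sources side by side.

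**Figure D1:**
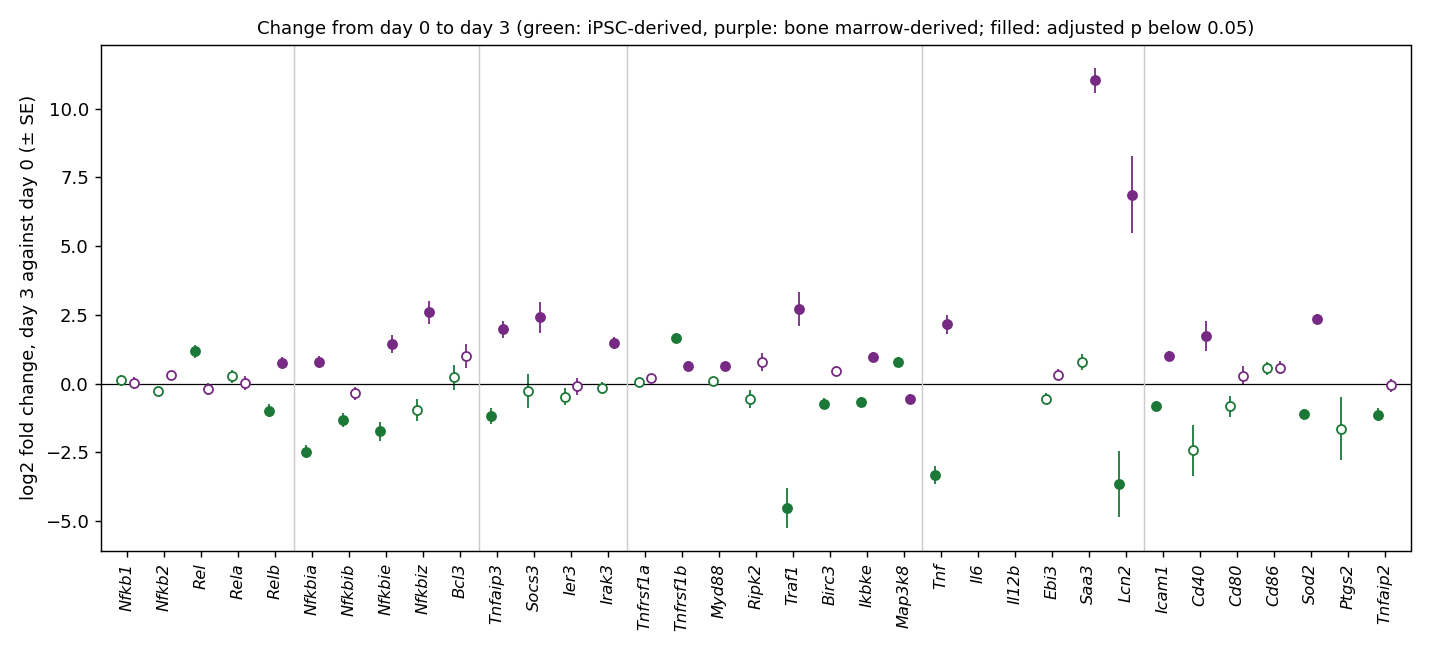
Log2 fold change from day 0 to day 3 with its standard error (vertical axis) for each member (horizontal axis), iPSC-derived in green and bone marrow-derived in purple, filled where the adjusted p was below 0.05 and left out where a group held 3 or fewer counts. Nfkbia, Nfkbie, Tnf, Tnfaip3, Traf1, Sod2, Icam1, Ikbke, Relb and Lcn2 have filled points below 0 in green and above 0 in purple, Map3k8 has them the other way round, and Saa3 stands at 11.03 in bone marrow-derived cells. The calls of Relb, Nfkbia and Map3k8 in purple and of Lcn2 in green were lost without at least 1 library.

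Among the subunits, the level of Rel rose in iPSC-derived cells and the levels of Rela did not pass the test in any comparison. Rel encodes the c-Rel subunit, which can activate transcription. Its 3 iPSC-derived day 0 libraries held 44.7, 35.3 and 31.0 CPM, the lowest of any group, followed by 88.5, 71.4 and 90.6 at day 3, 69.3, 47.1 and 68.6 at day 6 and 86.2, 72.6 and 47.1 at day 12. Every later library lay above every day 0 library. The log2 fold change was 1.17 ± 0.23 (SE) at day 3 (adjusted p = 0.00049), 0.74 at day 6 and 0.89 ± 0.23 at day 12 (adjusted p = 0.0051). The day 6 call was lost on leaving out 1 of day 0 replicates 2 and 3 or of day 6 replicates 1 and 3 (highest adjusted p = 0.0796). Rel levels in bone marrow-derived cells were 74.9, 89.7 and 104 CPM at day 0, 74.7, 83.7 and 73.8 at day 3, 88.0, 64.3 and 82.3 at day 6, and 86.7, 48.3 and 68.3 at day 12, and no change from day 0 passed the test.

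Relb, the partner of the non-canonical pathway, moved in opposite directions. It fell in iPSC-derived cells from 68.9, 55.0 and 50.3 CPM at day 0 to 36.3, 29.97 and 21.5 at day 3 (log2 fold change -0.99 ± 0.23, adjusted p = 0.0035). Days 6 and 12 of iPSC-derived cells held 41.3, 70.7 and 48.1 and then 44.5, 35.8 and 34.7 CPM. Relb in bone marrow-derived cells rose from 58.9, 59.0 and 32.6 to 88.2, 74.1 and 90.8 CPM at day 3 (0.75 ± 0.23, adjusted p = 0.024), and stood at 71.5, 81.9 and 79.0 at day 6 and at 52.8, 44.3 and 63.4 at day 12. The rise was lost without day 0 replicate 3 or without day 3 replicate 1 or 3 (highest adjusted p = 0.125).

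Nfkb1 and Nfkb2 encode precursors that are cut to the DNA-binding subunits without an activation domain. Nfkb1 in iPSC-derived cells held 32.9, 45.4 and 61.6 CPM at day 0, 41.6, 40.8 and 69.1 at day 3, 92.3, 79.7 and 91.2 at day 6, and 68.0, 86.8 and 90.4 at day 12. It rose at day 6 (0.91 ± 0.22, adjusted p = 0.0027) and at day 12 (0.81 ± 0.21, adjusted p = 0.007), and the day 12 call was lost without day 0 replicate 1 (adjusted p = 0.0615). In both later groups every library lay above the day 0 libraries. Nfkb1 in bone marrow-derived cells held 56.3, 66.8 and 67.2 CPM at day 0, 50.4, 66.6 and 77.5 at day 3, 83.2, 83.5 and 93.9 at day 6, and 81.6, 104 and 89.2 at day 12, and the day 12 value of 0.53 ± 0.21 did not pass (adjusted p = 0.074).

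Nfkb2 had group means between 46.4 and 82.0 CPM. Its iPSC-derived libraries held 75.9, 76.3 and 56.1 CPM at day 0, 63.1, 53.7 and 53.8 at day 3, 70.1, 83.1 and 64.2 at day 6, and 50.6, 45.5 and 43.1 at day 12. The day 12 fall (-0.58 ± 0.15, adjusted p = 0.0055) ended below every day 0 library, and was lost with no filter on low counts or with only the compared groups in the fit (highest adjusted p = 0.0888). The bone marrow-derived libraries held 69.9, 61.2 and 65.3 CPM at day 0, 74.9, 76.6 and 94.4 at day 3, 83.7, 78.5 and 83.9 at day 6, and 65.5, 64.8 and 69.5 at day 12, with no change from day 0 passing the test.

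Rela encodes the main transactivating subunit. It spread widely between iPSC-derived libraries: 88.2, 138 and 91.4 CPM at day 0, 145, 160 and 74.6 at day 3, 113, 183 and 130 at day 6, and 170, 164 and 90.6 at day 12. The bone marrow-derived libraries were tighter, with 136, 142 and 117 CPM at day 0, 131, 129 and 141 at day 3, 134, 131 and 113 at day 6, and 95.2, 90.7 and 102 at day 12. Its groups overlapped in every comparison except that bone marrow-derived day 12 lay below days 0 and 3, and none of these passed the test.

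Levels of different genes can be compared only per length of exon. On that scale Rela was the highest of the 5 subunits in every group, with means of 35.3 to 52.2 CPM per kilobase, and Nfkb1 the lowest, with 3.87 to 7.60. The length used is that of all exons counted for a gene, 12061 bases for Nfkb1 and 2716 to 7466 for the other subunits. The low rank of Nfkb1 depends on this length. By CPM alone its mean was the lowest of the subunits only at bone marrow-derived day 3 (64.8 CPM). Nfkb2 lay second by its mean, with 14.1 to 24.9, and its libraries overlapped with those of Relb at iPSC-derived day 0 and bone marrow-derived day 3. Rel and Relb overlapped at day 12 in both sources and at bone marrow-derived day 0. Rel and Nfkb1 overlapped at iPSC-derived days 0, 6 and 12 and at bone marrow-derived day 12. The plot of subunit levels per length shows this order.

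**Figure D2:**
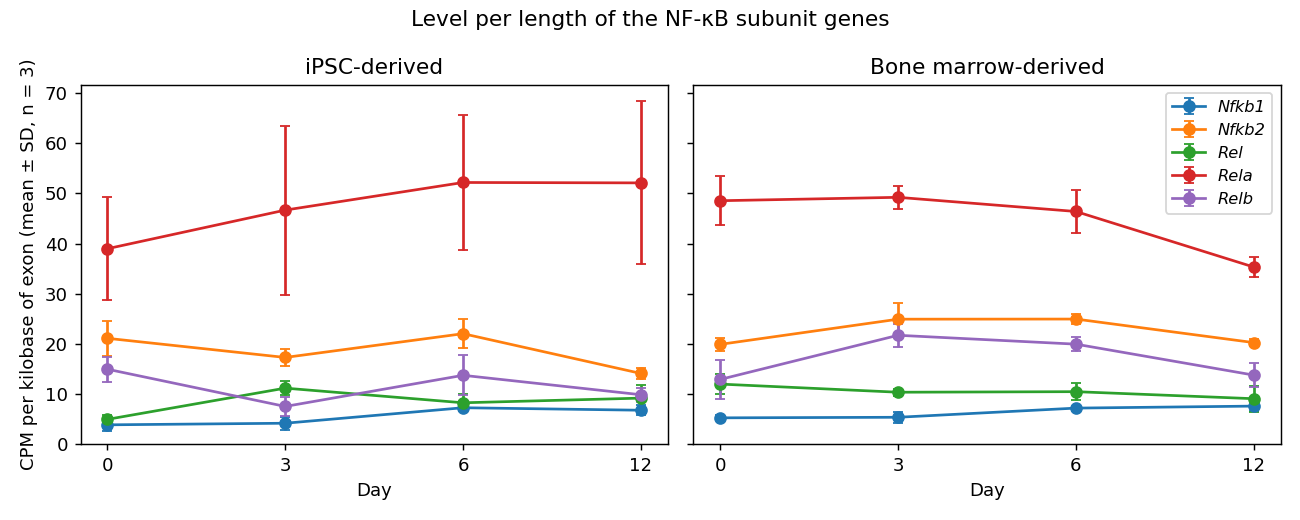
CPM per kilobase of exon (vertical axis, mean ± SD of 3 libraries) of the 5 subunit genes by day (horizontal axis), with iPSC-derived cells on the left and bone marrow-derived cells on the right. Rela lies between 35.3 and 52.2 in all 8 groups and Nfkb1 between 3.87 and 7.60. The length is that of all exons counted for the gene, 12061 bases for Nfkb1.

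The IκB genes, whose products hold NF-κB in the cytoplasm, fell together in iPSC-derived cells at day 3, when Nfkbia, Nfkbib and Nfkbie all passed the test. Nfkbia, the gene of IκBα, lies at chr12:55489411-55492647 (minus strand, mm10) and is the first of the promoters shown above. It went from 355, 354 and 222 CPM at day 0 to 46.8, 58.7 and 61.5 at day 3, 100, 55.6 and 116 at day 6, and 121, 131 and 77.1 at day 12. All 9 later libraries lay below the 3 of day 0. The falls were -2.48 ± 0.24 at day 3 (adjusted p = 5.0e-08), -1.78 ± 0.23 at day 6 and -1.50 ± 0.23 at day 12 (adjusted p = 3.0e-05).

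Nfkbia moved the other way in bone marrow-derived cells, where it rose from 116, 94.5 and 80.2 CPM at day 0 to 150, 181 and 169 at day 3 and 155, 186 and 145 at day 6. At day 12 it stood at 108, 128 and 125 CPM. The rises of 0.78 ± 0.23 at day 3 (adjusted p = 0.017) and 0.74 ± 0.23 at day 6 (adjusted p = 0.024) had no overlap with day 0. Both were lost without day 0 replicate 2 or 3, and without replicate 2 of the later day (highest adjusted p = 0.0844 at day 3 and 0.114 at day 6).

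Nfkbie, the gene of IκBε, followed the same pattern at a lower level. In iPSC-derived cells it held 28.6, 38.6 and 22.3 CPM at day 0, 6.05, 16.1 and 4.82 at day 3, 13.9, 16.99 and 8.20 at day 6, and 12.3, 15.4 and 11.8 at day 12. Its fall at day 3 was -1.73 ± 0.34 (adjusted p = 0.00066), and -2.44 without day 3 replicate 2, which stood above the others. The falls of -1.20 at day 6 and -1.17 at day 12 were lost without day 0 replicate 2, and the first also without day 6 replicate 3 (highest adjusted p = 0.0649 and 0.0723). Nfkbie in bone marrow-derived cells rose from 22.3, 16.6 and 14.1 CPM to 46.4, 46.9 and 51.1 at day 3 (1.45 ± 0.34, adjusted p = 0.0029), the highest group of all, and came to 28.96, 29.7 and 30.4 at day 6 and 18.4, 24.2 and 29.3 at day 12. Nfkbib, the gene of IκBβ, fell in iPSC-derived cells from a mean of 85.1 ± 21.5 CPM (SD, n = 3) to 34.1 ± 3.83 at day 3 (-1.32 ± 0.25, adjusted p = 0.00033). It lay between 22.4 and 33.3 CPM in the bone marrow-derived groups, where no change from day 0 passed.

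Nfkbiz and Bcl3 encode nuclear IκB-like proteins that tune which targets are switched on. Nfkbiz in iPSC-derived cells held 61.5, 84.9 and 30.1 CPM at day 0, 32.6, 39.0 and 18.7 at day 3, 79.8, 77.3 and 51.4 at day 6, and 212, 291 and 64.04 at day 12. Its rise at day 12 was 1.69 ± 0.40 (adjusted p = 0.0037), with replicate 3 within the range of day 0, and was lost with only the compared groups in the fit (adjusted p = 0.0555). Nfkbiz in bone marrow-derived cells rose from 10.8, 14.6 and 13.03 CPM to 65.5, 88.0 and 79.5 at day 3 (2.60 ± 0.43, adjusted p = 0.00014) and remained at 89.7, 95.0 and 73.0 at day 6 and 93.0, 83.4 and 82.2 at day 12. Every later bone marrow-derived library lay above those of day 0. Bcl3 lay between 6.89 and 8.81 CPM in the iPSC-derived group means and between 14.04 and 35.2 CPM in the bone marrow-derived ones, and no change from day 0 passed in either source.

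The feedback inhibitors differed from one another. Tnfaip3, which encodes a ubiquitin editor that shuts off signals to the IκB kinases, held 229, 202 and 99.7 CPM in iPSC-derived cells at day 0, 67.7, 92.0 and 74.7 at day 3, 79.9, 81.8 and 86.7 at day 6, and 102, 83.01 and 48.3 at day 12. It fell at day 3 (-1.18 ± 0.30, adjusted p = 0.0059), day 6 and day 12 (-1.19 ± 0.30, adjusted p = 0.0048). The day 6 call was lost without day 0 replicate 1 (adjusted p = 0.0571), and the day 12 call with only the compared groups in the fit (adjusted p = 0.0561). The bone marrow-derived libraries held 8.12, 20.99 and 10.8 CPM at day 0, 48.2, 66.4 and 43.3 at day 3, 73.8, 59.0 and 64.1 at day 6, and 36.1, 43.4 and 36.0 at day 12. The rise was 1.98 ± 0.32 at day 3 (adjusted p = 6.4e-05) and 1.53 ± 0.31 at day 12, and no later library reached down to day 0.

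Socs3 encodes an inhibitor of cytokine receptor signalling. It rose late in iPSC-derived cells, with 8.21, 9.74 and 2.79 CPM at day 0, 5.34, 11.2 and 0.804 at day 3, 19.4, 14.01 and 7.52 at day 6, and 81.6, 111 and 27.8 at day 12 (3.41 ± 0.61, adjusted p = 0.00032). It rose early in bone marrow-derived cells, from 13.7, 10.2 and 18.9 CPM to 76.3, 66.7 and 83.2 at day 3 (2.40 ± 0.57, adjusted p = 0.0052), 97.6, 57.7 and 65.7 at day 6 and 50.8, 49.6 and 51.0 at day 12. The bone marrow-derived day 12 rise of 1.83 ± 0.57 was lost on leaving out any of 5 of the 6 libraries (highest adjusted p = 0.0955). The exception was day 0 replicate 3.

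In the iPSC-derived day 12 libraries, Nfkbiz and Socs3 were high together with the genes of dissociation and immediate early response (12 genes known to rise quickly when cells are handled). The summed level of these was 6261, 9369 and 3165 CPM in the 3 iPSC-derived day 12 libraries, the same order as Nfkbiz and Socs3. It was 1123 to 2076 CPM at day 0, 793 to 1411 at day 3 and 1805 to 2618 at day 6 of iPSC-derived cells. In bone marrow-derived cells it was 758 to 1012 CPM at day 0, 1210 to 1477 at day 3, 1783 to 2921 at day 6 and 2563 to 3008 at day 12. The sum was thus higher there at day 12 than at day 3, whereas the mean of Socs3 went from 75.4 to 50.5 CPM and that of Nfkbiz was 77.6 and 86.2. The macrophage marker sum also had the same order in the iPSC-derived day 12 libraries, at 25847, 36552 and 16937 CPM. The part of either sum in the results on Nfkbiz and Socs3 was not tested.

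Irak3, the gene of a kinase-like brake on Toll-like receptor signals, rose at day 3 in bone marrow-derived cells from 42.4 ± 11.03 to 117 ± 18.6 CPM (SD, n = 3; 1.46 ± 0.22, adjusted p = 2.2e-05) and stood at 35.01 ± 3.36 CPM at day 12. Its iPSC-derived group means lay between 24.7 and 33.2 CPM, with no change from day 0 passing. Ier3, an early response gene of cell survival, fell in bone marrow-derived cells at day 12 (-0.96 ± 0.32, adjusted p = 0.036, from 131 ± 14.5 to 67.3 ± 14.99 CPM). That call was lost on leaving out any of 5 of the 6 libraries (highest adjusted p = 0.139). The exception was day 12 replicate 2.

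**Figure D3:**
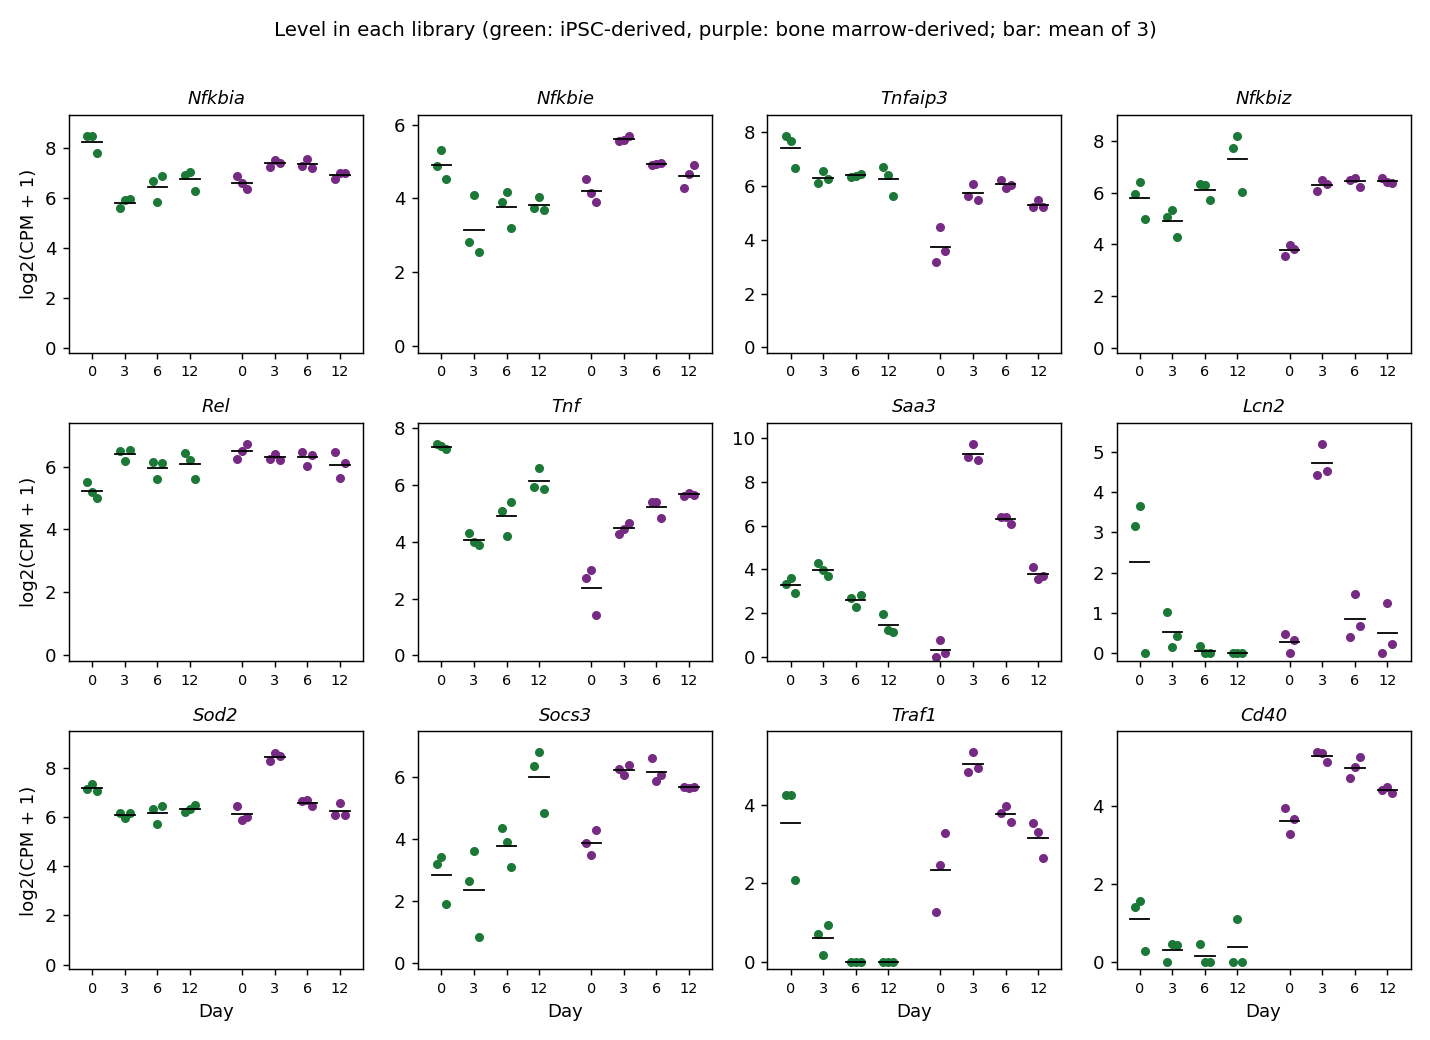
Log2(CPM + 1) (vertical axes) of 12 members in each of the 24 libraries by day (horizontal axes), iPSC-derived in green on the left and bone marrow-derived in purple on the right of each panel, with a bar at the mean of 3. Nfkbia, Tnf and Tnfaip3 start high and drop in green, where day 0 of Nfkbia was 222 to 355 CPM, while Saa3 and Lcn2 peak at day 3 in purple.

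Among receptor and signalling genes, Tnfrsf1b rose at day 3 in both sources and Traf1 moved in opposite directions. Tnfrsf1b encodes the type 2 TNF receptor of immune cells. It went from 328 ± 95.2 to 1036 ± 156 CPM in iPSC-derived cells (SD, n = 3; 1.66 ± 0.17, adjusted p = 9.3e-08) and from 529 ± 43.2 to 824 ± 50.1 CPM in bone marrow-derived cells (0.64 ± 0.16, adjusted p = 0.0069). No library of day 3 overlapped with day 0 in either source. At day 12 it stood at 306 ± 33.3 CPM in iPSC-derived cells, overlapping with day 0, and at 389 ± 38.2 CPM in bone marrow-derived cells, where all 3 libraries lay below day 0 without passing the test (-0.44 ± 0.16, adjusted p = 0.052). The iPSC-derived day 6 rise (0.55 ± 0.16) was lost without day 0 replicate 3 or day 6 replicate 2 (highest adjusted p = 0.106). Tnfrsf1a, the gene of the type 1 receptor found on most cells, had group means of 154 to 196 CPM and passed no test. Per kilobase of exon, Tnfrsf1b was the highest member in 5 of the 8 groups, and Nfkbia led at iPSC-derived day 0 with 197 CPM per kilobase.

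Traf1, the gene of an adaptor of TNF-family receptors and a known NF-κB target, fell to 0 counts in iPSC-derived libraries. It held 18.2, 17.8 and 3.22 CPM at day 0 and 0.616, 0.120 and 0.919 at day 3, and 0 in all 3 libraries at day 6 and at day 12. The fall at day 3 was -4.52 ± 0.72 (adjusted p = 0.00011). Against the 3 counts that a group at 0 allows, it was at least 114-fold lower at day 6 and at least 125-fold lower at day 12 than at day 0. Traf1 rose in bone marrow-derived cells from 1.42, 4.52 and 8.73 CPM to 27.3, 39.4 and 29.4 at day 3 (2.71 ± 0.61, adjusted p = 0.0028, and 3.44 without day 0 replicate 3), and then stood at 12.9, 14.7 and 10.8 at day 6 and 10.6, 8.82 and 5.22 at day 12.

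Ikbke, the gene of an IκB kinase-related enzyme of interferon induction, fell in iPSC-derived cells from 270 ± 6.89 to 171 ± 11.8 CPM at day 3 (-0.66 ± 0.17, adjusted p = 0.0079) and rose in bone marrow-derived cells from 178 ± 20.1 to 348 ± 39.7 CPM (0.97 ± 0.17, adjusted p = 0.00021). Map3k8, a kinase gene of the branch to MAP kinases, rose in iPSC-derived cells at day 3 (0.79 ± 0.20, adjusted p = 0.005, from 31.6 ± 7.08 to 54.5 ± 8.63 CPM) and at day 6 (0.63 ± 0.20). The day 6 call was lost without day 0 replicate 2 or 3 or day 6 replicate 2 (highest adjusted p = 0.111). Map3k8 was the 1 member that fell in bone marrow-derived cells at day 3 (-0.56 ± 0.19, adjusted p = 0.045). That call was lost on leaving out any of the 6 libraries (highest adjusted p = 0.341). It was also lost with other or no scaling factors, no filter on low counts or a replicate block (highest adjusted p = 0.155). The day 12 fall of -0.78 ± 0.19 was kept without each library in turn.

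Birc3, the gene of a ubiquitin ligase of TNF receptor complexes, fell in iPSC-derived cells at days 3, 6 and 12, from 77.8 ± 12.3 CPM to 34.7 ± 4.89 at day 12 (-1.17 ± 0.19, adjusted p = 7.4e-05), the day 3 call being lost with only the compared groups in the fit (adjusted p = 0.0682). In bone marrow-derived cells it fell from 77.4 ± 9.78 to 38.4 ± 4.84 CPM at day 12 (-1.01 ± 0.19, adjusted p = 0.00034), with 106 ± 10.9 CPM at day 3. Myd88, the adaptor of Toll-like and interleukin receptors, rose in bone marrow-derived cells from 86.7 ± 2.30 to 134 ± 17.1 CPM at day 3 (0.63 ± 0.16, adjusted p = 0.007) and by 0.58 at day 6, with no change passing in iPSC-derived cells. Ripk2, the kinase gene downstream of NOD receptors, fell in iPSC-derived cells at day 12 (-0.99 ± 0.32, adjusted p = 0.026). This was lost without day 0 replicate 2 or 3 or day 12 replicate 1 or 3 (highest adjusted p = 0.124).

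The secreted proteins include the cytokine TNF and the acute phase protein SAA3. Tnf, at chr17:35199381-35202007 (minus strand, mm10), held 171, 163 and 150 CPM in iPSC-derived cells at day 0, 18.8, 15.04 and 13.8 at day 3, 32.6, 17.2 and 41.1 at day 6, and 59.0, 94.3 and 57.4 at day 12. Its log2 fold change was -3.34 ± 0.33 at day 3 (adjusted p = 5.8e-08) and -1.20 ± 0.30 at day 12 (adjusted p = 0.0043). All 9 later libraries lay below day 0.

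Tnf rose in bone marrow-derived cells at each time, from 5.54, 6.96 and 1.69 CPM at day 0 to 18.5, 20.9 and 24.4 at day 3, 41.1, 40.6 and 27.4 at day 6 and 48.1, 51.4 and 49.0 at day 12. The log2 fold changes from day 0 were 2.15 ± 0.34, 2.93 ± 0.34 and 3.37 ± 0.35 (adjusted p = 4.7e-05, 9.0e-07 and 1.1e-07). No library of days 3, 6 or 12 overlapped with day 0.

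Saa3, at chr7:46711998-46715676 (minus strand, mm10), encodes a serum amyloid protein made by activated macrophages. In bone marrow-derived cells it went from 0, 0.696 and 0.130 CPM at day 0 to 564, 836 and 508 at day 3, 82.5, 83.6 and 65.8 at day 6, and 16.1, 10.8 and 12.1 at day 12. The change at day 3 was 11.03 ± 0.46 (adjusted p = 9.3e-14), and 13.02 without day 0 replicate 2. Per kilobase of exon it was then the highest of all members, at 1198 CPM per kilobase. In iPSC-derived cells it held 8.97, 10.9 and 6.43 CPM at day 0, 18.4, 14.7 and 12.1 at day 3, 5.50, 3.84 and 6.15 at day 6, and 2.88, 1.33 and 1.21 at day 12. The iPSC-derived day 3 value of 0.78 ± 0.29 did not pass (adjusted p = 0.064), though its libraries lay above day 0, and the day 12 fall of -2.31 ± 0.36 did (adjusted p = 3.3e-05).

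Lcn2, which encodes an iron-scavenging antibacterial protein, held 7.88, 11.7 and 0 CPM in iPSC-derived cells at day 0, so its level there differed between libraries. Later iPSC-derived libraries held 1.03, 0.120 and 0.344 CPM at day 3, 0.125, 0 and 0 at day 6, and 0, 0 and 0 at day 12, at least 62.2-fold below day 0. The day 3 fall (-3.64 ± 1.20, adjusted p = 0.037) was lost on leaving out any library except day 0 replicate 3 (highest adjusted p = 0.139). The same call was lost with a replicate block in the fit and in DESeq2 (highest adjusted p = 0.0936). In bone marrow-derived cells it rose from 0.387, 0 and 0.261 CPM to 20.4, 35.7 and 22.1 at day 3 (6.86 ± 1.40, adjusted p = 0.0013) and was at 0.319, 1.76 and 0.585 at day 6 and 0, 1.39 and 0.180 at day 12. Both Saa3 and Lcn2 were highest in the 3 bone marrow-derived day 3 libraries, with no overlap with any other group. Neutrophils also make Lcn2. The 8 neutrophil markers summed to 0.765 to 1.45 CPM in those 3 libraries and to 0.812 to 2.19 CPM at bone marrow-derived day 0. The part of neutrophils in the Lcn2 levels was not tested.

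Il6 and Il12b, cytokine genes of strongly activated macrophages, stayed near the limit of detection. Il6 was found in 1 iPSC-derived day 0 library (1.31 CPM), in the 3 iPSC-derived day 6 libraries (0.125, 0.248 and 0.293), in the 3 bone marrow-derived day 3 libraries (0.328, 3.07 and 1.23) and in 1 bone marrow-derived day 6 library (0.585). The other 16 libraries held 0. Its rise at day 3 in bone marrow-derived cells, at least 12.8-fold, did not pass (adjusted p = 0.061). Il12b was found in 2 libraries, bone marrow-derived day 0 replicate 3 (0.521 CPM) and day 6 replicate 2 (1.12 CPM), with 0 in the other 22. Ebi3, a subunit gene of regulatory interleukins, was far higher, with group means of 47.3 to 106 CPM. It fell in bone marrow-derived cells at day 12 (-0.85 ± 0.20, adjusted p = 0.0028).

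Among the surface proteins, Cd40 separated the sources in every library. CD40 receives signals from T cells and is itself an NF-κB activator. In iPSC-derived cells Cd40 held 1.64, 1.97 and 0.214 CPM at day 0, 0, 0.361 and 0.344 at day 3, 0.375, 0 and 0 at day 6, and 0, 1.14 and 0 at day 12. The bone marrow-derived libraries held 14.4, 8.70 and 11.6 CPM at day 0, 40.7, 40.5 and 33.8 at day 3, 25.2, 31.2 and 37.1 at day 6, and 20.1, 21.6 and 19.2 at day 12. Each bone marrow-derived library lay above every iPSC-derived one. The bone marrow-derived rise at day 3 (1.73 ± 0.56, adjusted p = 0.032) was lost on leaving out any of the 6 libraries (highest adjusted p = 0.115). The iPSC-derived libraries of day 6 held 3 counts in all against 35 at day 0, a ratio of 11.1 (95% interval 3.50 to 56.5, counting error only), and this fall (adjusted p = 0.023) was lost without day 0 replicate 1 or 2 or day 6 replicate 2 or 3 (highest adjusted p = 0.0934).

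Cd80 and Cd86 encode the costimulatory partners of CD28. Cd86 in iPSC-derived cells held 97.8, 94.3 and 58.4 CPM at day 0, 143, 133 and 93.3 at day 3, 101, 93.4 and 62.0 at day 6, and 70.8, 53.8 and 105 at day 12, and no change from day 0 passed. In bone marrow-derived cells Cd86 held 78.6, 69.6 and 59.1 CPM at day 0, 104, 97.8 and 109 at day 3, 74.7, 85.6 and 79.7 at day 6, and 54.2, 32.9 and 43.3 at day 12. Its day 12 libraries lay below day 0 (-0.67 ± 0.24, adjusted p = 0.044), a call lost without day 0 replicate 1 or 2 or day 12 replicate 2 or 3 (highest adjusted p = 0.198). Cd80 had group means of 2.73 to 5.29 CPM in iPSC-derived and 7.06 to 13.2 CPM in bone marrow-derived cells, and no change from day 0 passed in either source.

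Icam1, the gene of an adhesion molecule for leukocytes, fell in iPSC-derived cells from 182 ± 39.7 to 104 ± 12.8 CPM at day 3 (-0.81 ± 0.17, adjusted p = 0.0012) and was 98.1 ± 9.19 CPM at day 12. It rose in bone marrow-derived cells from 102 ± 27.6 to 204 ± 12.4 CPM at day 3 (1.00 ± 0.17, adjusted p = 0.00012) and was 170 ± 4.73 CPM at day 12. Both day 12 differences also passed (-0.89 ± 0.17 and 0.74 ± 0.17).

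Sod2 encodes the mitochondrial superoxide dismutase. It held 138, 161 and 134 CPM in iPSC-derived cells at day 0, 69.8, 60.7 and 71.5 at day 3, 78.6, 51.5 and 85.2 at day 6, and 73.1, 78.0 and 88.5 at day 12, each later library below day 0. The bone marrow-derived libraries held 84.9, 57.4 and 63.6 CPM at day 0, 313, 391 and 351 at day 3, 98.0, 101 and 85.5 at day 6, and 66.8, 92.8 and 67.5 at day 12. Day 3 stood alone there, with a change of 2.36 ± 0.19 (adjusted p = 1.7e-09), while days 6 and 12 did not pass. The iPSC-derived falls were -1.10 ± 0.18 at day 3 (adjusted p = 7.5e-05) and -0.85 ± 0.18 at day 12 (adjusted p = 0.00094).

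Ptgs2, the inducible prostaglandin synthase gene, held 6.13, 1.86 and 2.68 CPM in iPSC-derived cells at day 0, 2.87, 0.241 and 0.230 at day 3, 2.38, 0 and 5.08 at day 6, and 3.48, 12.5 and 0.910 at day 12. No change from day 0 passed there. The bone marrow-derived libraries held 0, 0 and 0.130 CPM at day 0, 5.36, 8.90 and 7.26 at day 3, 1.38, 3.04 and 0.234 at day 6, and 0 in all 3 at day 12. Its day 3 rise rested on 204 counts against 1, a ratio of 174 (95% interval 30.9 to 6904, counting error only; adjusted p = 0.004). Tnfaip2, a TNF-induced gene of cell protrusions, fell in iPSC-derived cells from 128 ± 28.4 to 58.3 ± 24.4 CPM at day 3 (-1.13 ± 0.24, adjusted p = 0.0015) and in bone marrow-derived cells from 205 ± 21.9 to 67.0 ± 15.6 CPM at day 12 (-1.61 ± 0.25, adjusted p = 2.6e-05).

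At days 6 and 12 the difference from day 0 remained lopsided in iPSC-derived cells. At day 6, 4 members were higher and 12 lower, against 14.3% and 11% of all genes (25.4% in either direction), with a median of -0.51 against 0.09. At day 12, 4 were higher and 15 lower, against 14% and 10.7% (24.7% in either direction), with a median of -0.71 against 0.04. The counts of higher members, 11.8% on each of these days, were near the background. The day 6 count of 16 was 10 with only the compared groups in the fit. The 4 higher members at day 12 were Nfkb1, Rel, Nfkbiz and Socs3. Bone marrow-derived cells had 9 members higher and 1 lower at day 6, against 12.7% and 6.89% of all genes (19.6% in either direction), with a median of 0.52 against 0.04, and 6 higher and 6 lower at day 12, against 14.7% and 9.08% (23.8% in either direction), with a median of 0.06 against 0.04. With no scaling factors the day 6 split was 16 higher and 1 lower and the day 12 split 8 higher and 4 lower, and with only the compared groups in the fit the day 6 split was 18 and 1. The 6 higher members at day 12 (17.6%, near the background) were Nfkbiz, Tnf, Tnfaip3, Icam1, Socs3 and Saa3. The lower ones were Tnfaip2, Birc3, Cd86, Map3k8, Ier3 and Ebi3.

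Within co-culture, where day 12 and day 3 share the condition, bone marrow-derived cells showed a decline. From day 3 to day 12, 1 member rose and 12 fell, against 4.20% and 4.25% of all genes (8.45% in either direction), with a median of -0.76 against 0.01. With only the compared groups in the fit, 2 rose and 21 fell. Saa3 (-5.61 ± 0.32), Sod2 (-2.22 ± 0.18), Irak3 (-1.74 ± 0.22), Tnfaip2 (-1.55 ± 0.25) and Birc3 (-1.46 ± 0.19) fell, as did Cd86, Ebi3, Tnfrsf1b, Lcn2, Ikbke, Traf1 and Ptgs2. Ptgs2 was at least 75.1-fold lower. Lcn2 stood at -5.62 ± 1.26, and at -7.92 without day 12 replicate 2. Tnf rose (1.22 ± 0.30, adjusted p = 0.011) and lost its call without day 3 replicate 1 (adjusted p = 0.0662). Traf1 was lost on leaving out any of the 6 libraries (highest adjusted p = 0.163), and Ikbke without day 3 replicate 2 or 3 or day 12 replicate 1 or 3 (highest adjusted p = 0.133).

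In iPSC-derived cells 5 members rose from day 3 to day 12 and 3 fell, against 4.07% and 4.82% of all genes (8.89% in either direction), with a median of 0.02 against 0.01. With only the compared groups in the fit, 2 rose and 2 fell. Tnf (2.14 ± 0.31), Nfkbiz (2.65 ± 0.41), Socs3 (3.67 ± 0.62), Nfkbia (0.98 ± 0.23) and Nfkb1 (0.70 ± 0.21) rose, and Saa3 (-3.09 ± 0.35), Tnfrsf1b (-1.76 ± 0.17) and Traf1 fell, the last to 0 counts and at least 5.38-fold. Socs3 stood at 4.55 without day 3 replicate 2, and its call was lost with only the compared groups in the fit (adjusted p = 0.0565). The call of Nfkb1 was lost without day 3 replicate 1 or 2 or day 12 replicate 2 or 3, that of Nfkbia without day 3 replicate 1 or day 12 replicate 2, and that of Traf1 without any library except day 3 replicate 2 (highest adjusted p = 0.212, 0.0612 and 0.133). The count of members called was 5 without day 3 replicate 1 or without day 12 replicate 2. Of 11 tested immediate early genes 9 rose and 0 fell in the same comparison, and their part in it was not tested.

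Compared directly at day 0, iPSC-derived macrophages had 12 members higher and 7 lower than bone marrow-derived ones, against 18.9% and 17.1% of all genes (36% in either direction), so that the count of lower members was near the background. The median was 0.24 against 0.00. Tnf was higher by 5.08 ± 0.36 log2 units (adjusted p = 1.2e-10), Tnfaip3 by 3.73 ± 0.33, Saa3 by 4.86 ± 0.50, Nfkbiz by 2.20 ± 0.42 and Nfkbia by 1.68 ± 0.23. Lcn2, Nfkbib, Sod2, Icam1, Ikbke, Ripk2 and Ptgs2 completed the higher group, and Ptgs2 rested on 98 counts against 1. Saa3 was higher by 6.84 without bone marrow-derived replicate 2, and Lcn2 ranged from 4.14 to 5.59 over the left-out libraries. The lower members were Cd40 (-3.17 ± 0.65), Rel (-1.27 ± 0.23), Map3k8 (-1.24 ± 0.20), Tnfrsf1b (-0.69 ± 0.16), Bcl3, Tnfaip2 and Cd80, and the last 3 were each lost on leaving out 4 or 5 of the 6 libraries (highest adjusted p = 0.101, 0.149 and 0.131). The macrophage marker sum was lower in the iPSC-derived libraries here, at 7484 to 10406 against 41687 to 44451 CPM, and its part in these differences was not tested.

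By day 3 the direction was the other: 0 members were higher and 21 lower in iPSC-derived cells, against 8.94% and 8.92% of all genes (17.9% in either direction), with a median of -1.15 against -0.02. The largest gaps that passed were Cd40 (-7.32 ± 0.82), Traf1 (-5.81 ± 0.74), Lcn2 (-5.64 ± 1.27), Saa3 (-5.40 ± 0.32, adjusted p = 1.0e-11), Socs3 (-3.71 ± 0.62), Nfkbie (-2.42 ± 0.35), Sod2 (-2.39 ± 0.19), Cd80 (-2.14 ± 0.38) and Bcl3 (-2.13 ± 0.44). Without iPSC-derived replicate 2, Nfkbie was at -3.13 and Socs3 at -4.59, and without replicate 1 Cd40 was at -6.70 and Lcn2 at -6.71. Irak3, Tnfaip2, Nfkbia, Relb, Nfkbiz, Birc3, Ier3, Ikbke, Icam1, Ebi3, Nfkb2 and Myd88 were lower as well. Of the 21 calls, 16 held without each library in turn, and those of Nfkb2, Nfkbiz, Ier3, Myd88 and Ebi3 did not (highest adjusted p = 0.139). Bone marrow-derived day 3 replicate 3 was among the libraries without which each of the 5 was lost. Tnf no longer differed past the test at day 3 (-0.42). Tnfaip3 and Tnfrsf1b lay higher in iPSC-derived cells at day 3 without overlap, and neither passed the test. Tnfaip3 held 67.7 to 92.0 against 43.3 to 66.4 CPM, and Tnfrsf1b 857 to 1138 against 767 to 855 CPM.

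At day 6, 0 members were higher and 13 lower in iPSC-derived cells, against 6.99% and 6.23% of all genes (13.2% in either direction), with a median of -0.44 against 0.01. Saa3 (-3.89 ± 0.31), Socs3 (-2.44 ± 0.58), Cd80 (-1.76 ± 0.38), Icam1 (-0.97 ± 0.17) and Irak3 (-0.89 ± 0.22) were lower. Cd40 rested on 3 counts against 749, and Traf1 on 0 against 305, at least 110-fold lower. The count was 8 without bone marrow-derived day 6 replicate 2, without which Nfkbia, Nfkbie, Bcl3, Ier3 and Myd88 were lost (highest adjusted p over all left-out libraries 0.202). Birc3 was lost without iPSC-derived day 6 replicate 1 (adjusted p = 0.0586). Tnfaip3 again lay higher in iPSC-derived cells without overlap (79.9 to 86.7 against 59.0 to 73.8 CPM) and did not pass the test.

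At day 12, 4 members were higher and 7 lower in iPSC-derived cells, against 5.03% and 4.74% of all genes (9.77% in either direction), with a median of -0.14 against -0.03. With no scaling factors the split was 2 higher and 10 lower, and with only the compared groups in the fit 2 higher and 4 lower. Cd40 (-5.60 ± 0.75), Saa3 (-2.87 ± 0.35) and Icam1 (-0.80 ± 0.17) were lower, and Traf1 was at least 77.8-fold lower. Cd40 moved to -10.49 without iPSC-derived day 12 replicate 2, the 1 library of that group with counts. Ebi3 was higher (0.94 ± 0.20, adjusted p = 0.003), as was Ptgs2, at 170 counts against 0 and at least 61.4-fold. The calls of Tnfaip3 and Cd86 (higher) and of Nfkb2, Cd80 and Ikbke (lower) were each lost without at least 1 library (highest adjusted p = 0.161), with bone marrow-derived day 12 replicate 2 among these libraries for each gene except Cd80. The count was 7 without bone marrow-derived day 12 replicate 2 or 3. The plot of source differences shows the calls by day. These were of mixed sign at day 0 and all lower at days 3 and 6.

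**Figure D4:**
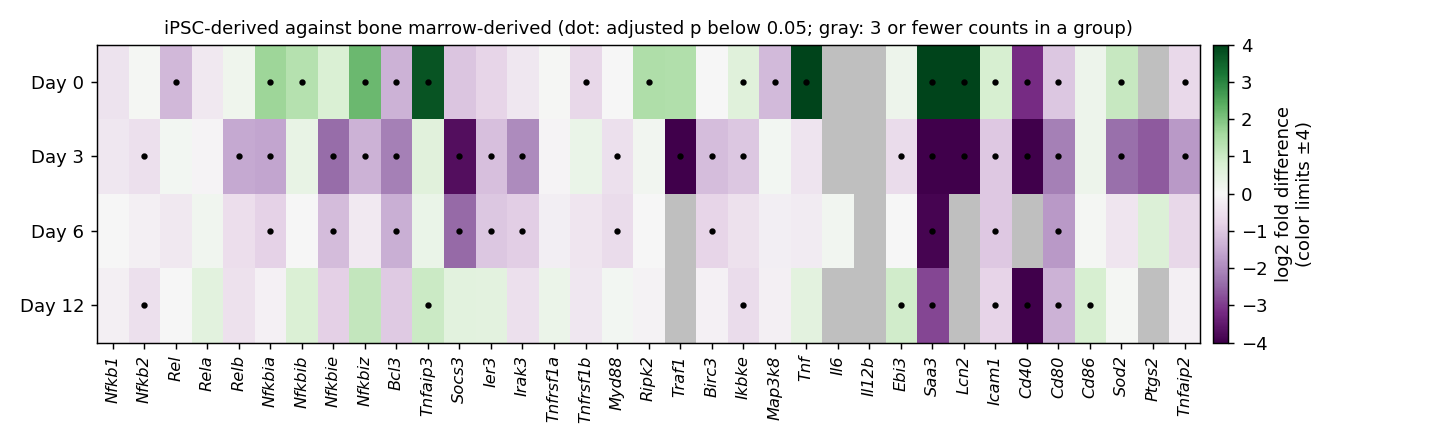
Log2 fold difference of iPSC-derived against bone marrow-derived libraries (color, green higher and purple lower, limits at 4) for each member (horizontal axis) at days 0, 3, 6 and 12 (vertical axis), with a dot where the adjusted p was below 0.05 and gray where a group held 3 or fewer counts. At day 0 dots fall on both colors, and at days 3 and 6 every dot is on purple. Gray cells carry no dot.

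The changes from day 0 were also compared directly between the sources. Unequal changes can pass this test without being opposite, and Tnfrsf1b rose in both sources at day 3. The quantity tested is the difference of changes, in which the bone marrow-derived change is subtracted from the iPSC-derived one. From day 0 to day 3 it passed for 26 of 34 members, 3 higher (Rel, Tnfrsf1b and Map3k8, 8.82%, near the background) and 23 lower, against 9.03% and 11.5% of all genes (20.5% in either direction), with a median of -1.48 against -0.01. From day 0 to day 12 it passed for 14 members, 2 higher and 12 lower, against 9.07% and 11% (20.1% in either direction), with a median of -0.48 against -0.02. For Nfkbia it was -3.26 ± 0.33 at day 3 (adjusted p = 7.4e-08) and -1.81 ± 0.32 at day 12 (adjusted p = 0.0002). For Rel it was 1.38 ± 0.32 and 1.29 ± 0.32 (adjusted p = 0.0023 and 0.0044). Leaving out each of 12 libraries in turn kept 16 of the 23 lower and all 3 higher calls at day 3, and 9 of the 12 lower and both higher calls at day 12.

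Other genes of the pathway were counted from 3 further lists. At day 3, 11.2% of all genes rose and 8.14% fell in iPSC-derived cells, and 11.9% and 6.61% in bone marrow-derived cells. Of 29 kinase and adaptor genes, 3 (10.3%) rose and 1 (3.45%) fell in iPSC-derived cells, and 4 (13.8%) rose and 0 fell in bone marrow-derived cells, so both counts of rises were near the background. Of 22 inhibitor and ubiquitin editor genes, 1 (4.55%) rose and 5 (22.7%) fell in iPSC-derived cells, and 6 (27.3%) rose and 0 fell in bone marrow-derived cells. Of 22 tested further inflammatory targets (27 listed), 1 (4.55%) rose and 7 (31.8%) fell in iPSC-derived cells, and 14 (63.6%) rose and 1 (4.55%) fell in bone marrow-derived cells.

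Clec4e, the gene of a receptor for mycobacterial glycolipids, had the lowest adjusted p of these lists in the iPSC-derived day 3 comparison, where it went from 66.2 ± 14.8 to 0.886 ± 0.920 CPM (-6.19 ± 0.55, adjusted p = 6.3e-08). Clec4e stood at 21.9 ± 10.3 CPM in bone marrow-derived cells at day 0 and at 399 ± 16.3 at day 3, so that the difference of changes was -10.37 ± 0.70 (adjusted p = 1.1e-09). Usp18, an interferon-induced protease gene of feedback inhibition, fell from 212 ± 38.6 to 44.1 ± 23.3 CPM at day 12 in iPSC-derived cells (-2.27 ± 0.26) and rose from 10.1 ± 0.847 to 70.8 ± 4.97 CPM at day 3 in bone marrow-derived cells (2.81 ± 0.27). N4bp1, the gene of an RNA-cutting brake on NF-κB, rose from 33.6 ± 1.84 to 124 ± 15.2 CPM in bone marrow-derived cells at day 3 (1.89 ± 0.17, adjusted p = 1.5e-08).

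Between sources at day 0, 13 of the 22 further targets (59.1%) were higher and 3 (13.6%) lower in iPSC-derived cells, against 18.9% and 17.1% of all genes. Bcl2l1, a survival gene, was higher there by 2.18 ± 0.18. At day 3, 3 were higher and 13 lower (13.6% and 59.1%, against 8.94% and 8.92%), and at day 6, 2 were higher and 8 lower (9.09% and 36.4%, against 6.99% and 6.23%). At day 12, 2 were higher and 4 lower (9.09% and 18.2%, against 5.03% and 4.74%), and 16 were not called. Cd83, a surface gene of activated antigen-presenting cells, was 281 ± 27.2 CPM in iPSC-derived and 26.7 ± 4.37 CPM in bone marrow-derived cells at day 3 (3.39 ± 0.41, adjusted p = 4.0e-06), against the direction of most of the list, and was higher at day 12 as well (2.10 ± 0.39).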

How the data were processed

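The deposited values are whole read counts per gene that the authors made from paired reads of SMART-seq libraries. Per the submitters' processing notes, reads were aligned to mm10 (GRCm38) with STAR. Per the file headers, featureCounts 1.5.0-p1 counted them over GENCODE vM9 genes. No strand setting is given there, so reads from overlapping antisense genes cannot be told apart from those of a member. The labels' protocol names an ERCC spike-in, and the table holds 0 ERCC rows. Rows without a symbol (419) held 0.063% of the counts and were kept.

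Groups came from the labels, 3 libraries in each of 8, and 0 pairs of libraries held identical counts. The 35 members and the other gene lists were chosen with earlier results of these data known. Genes were filtered with filterByExpr (minimum count 10, minimum total 15), libraries scaled by TMM, and all 24 libraries fitted with 1 coefficient per group in the quasi-likelihood model of edgeR 4.0.16 in R 4.3.3. Adjusted p-values follow Benjamini and Hochberg over 15000 genes in each of 14 comparisons, with calls below 0.05. The code was tested on simulated data. Where a group held 0 counts, folds use a floor of 3 counts over the group. With 1 to 3 counts, a ratio with an exact 95% interval is given. Every member is named. Values in every library are printed for 17 fixed members and for those with a called log2 change of at least 2 at day 12 or in a difference of changes. At most 3 other pathway genes per comparison are named, by lowest adjusted p. Sequences are from RefSeq windows on GRCm38.p6. Alternatives were other scaling (RLE, none), no filter, a replicate block, only the compared groups, each library left out, and DESeq2 1.42.0.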

Additional observations from a re-analysis of the deposited data

Results flagged for a closer look

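The results singled out here are members whose change from day 0 differed between sources by the direct test of that difference in edgeR (change in iPSC-derived cells minus change in bone marrow-derived cells, adjusted p below 0.05 over 15000 genes). At day 3 the difference was positive for Rel (1.38), Tnfrsf1b (1.02) and Map3k8 (1.34). Among subunits and IκB-type genes it was negative for Nfkb2 (-0.61), Relb (-1.74), Nfkbia (-3.26), Nfkbib (-0.96), Nfkbie (-3.18) and Nfkbiz (-3.56). Feedback inhibitor genes followed with Tnfaip3 (-3.16), Socs3 (-2.67) and Irak3 (-1.63). Signalling genes were Traf1 (-7.23), Birc3 (-1.18), Ikbke (-1.62) and Ripk2 (-1.33). Secreted protein genes were Tnf (-5.50), Saa3 (-10.26), Lcn2 (-10.51) and Ebi3 (-0.87). The remaining targets were Icam1 (-1.81), Cd40 (-4.15), Sod2 (-3.46) and Tnfaip2 (-1.08). Ptgs2 (adjusted p = 0.0033) and Il6 (adjusted p = 0.019) were also more negative, and since a group held 3 or fewer counts for each, no size is given.

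Not all of these calls held without each library. Nfkb2, Nfkbib, Tnfaip2, Socs3, Ripk2 and Ebi3 at day 3 were lost without 5 to 9 of the 12 libraries (highest adjusted p = 0.135). Il6 was lost without iPSC-derived day 0 replicate 1, the 1 library of that group with counts (adjusted p = 1.0). Without bone marrow-derived day 0 replicate 2, Saa3 stood at -12.24, and without iPSC-derived day 3 replicate 2 Nfkbie stood at -3.92 and Socs3 at -3.58. Without bone marrow-derived day 0 replicate 3 Traf1 stood at -7.95. Lcn2 ran from -9.78 without iPSC-derived day 0 replicate 2 to -11.61 without iPSC-derived day 3 replicate 1, and was -11.24 without bone marrow-derived day 0 replicate 1.

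At day 12 the difference was positive for Rel (1.29) and Map3k8 (1.08). It was negative for Nfkb2 (-0.61), Nfkbia (-1.81), Nfkbie (-1.62), Tnfaip3 (-2.71), Tnf (-4.57), Saa3 (-7.73), Sod2 (-0.99), Icam1 (-1.64), Ikbke (-1.20) and Ripk2 (-1.58). Traf1 (adjusted p = 1.1e-05) and Lcn2 (adjusted p = 0.0066) were also more negative, with no size given because a group held 3 or fewer counts. Nfkb2 was lost without 9 of the 12 libraries (highest adjusted p = 0.105), Nfkbie without iPSC-derived day 0 replicate 2 (0.0519) and Lcn2 without bone marrow-derived day 12 replicate 2 (0.127). Saa3 stood at -9.68 without bone marrow-derived day 0 replicate 2. Map3k8 was lost with no scaling factors (0.0533).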

How the results depend on the processing

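No member value changed sign with its call. Counts of members called moved by over 1.5 times in these cases. With no scaling factors, bone marrow-derived day 6 against day 0 had 17 calls in place of 10. With only the compared groups in the fit, the counts were 10 in place of 16 for iPSC-derived day 6 against day 0, 4 in place of 8 for iPSC-derived day 12 against day 3, 19 in place of 10 for bone marrow-derived day 6 against day 0, 23 in place of 13 for bone marrow-derived day 12 against day 3, and 6 in place of 11 between sources at day 12. Leaving out 1 library gave 5 to 8 for iPSC-derived day 12 against day 3, 8 to 12 between sources at day 6 and 7 to 11 between sources at day 12. Over all genes, only the compared groups gave 1849, 1938 and 2106 calls in place of 2907, 3804 and 3706 for iPSC-derived days 3, 6 and 12 against day 0, 324 in place of 1334 for iPSC-derived day 12 against day 3, and 2751 in place of 1267 for bone marrow-derived day 12 against day 3. On leaving out 1 library, the iPSC-derived count of day 12 against day 3 fell to 780 (day 12 replicate 2 left out), 819 (day 3 replicate 1) and 858 (day 12 replicate 1), and the bone marrow-derived count to 790 (day 3 replicate 3). With no scaling, the median of all genes shifted by over 0.1 in 9 comparisons (-0.296 to 0.173), and the share of higher calls over all genes fell most between sources at day 12, from 51.5% to 25.2%. The cause was not tested.

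Groups share replicate numbers, which were not treated as pairs in the main fit. The series describes the day 0 cells as controls of the same batch. No label states that libraries of the same number share a batch. Sample codes in the labels run by replicate number in iPSC-derived cells and by day in bone marrow-derived cells. Most same-numbered pairs correlated weakly, and no bone marrow-derived pair reached 0.1. Deviations from the group means correlated at -0.0545 to 0.161 (median 0.0317) for same-numbered iPSC-derived libraries. For bone marrow-derived ones it was -0.0209 to 0.0397 (median 0.0113). Libraries of other numbers correlated at -0.205 to 0.106 (median -0.0168) in iPSC-derived cells. In bone marrow-derived cells these were at -0.0451 to 0.0402 (median -0.00536). Libraries correlated best with their own number in 21 of 36 and 19 of 36 cases, where 12 would be expected of unrelated numbers. This is a hint of pairing that the main fit leaves out. With the replicate block, member calls were 16 in iPSC-derived and 18 in bone marrow-derived cells at day 3 against day 0, in place of 16 and 19. Genes near 0 counts (Il6, Il12b, Lcn2, Ptgs2, Traf1 and Cd40) are limited by depth.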
